A study of Mus musculus with 20 samples.

Results

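Muscle of the mouse hindlimb was compared between FLASH and conventional dose rate at the same electron dose. The comparison held 7 of the 20 libraries of the study, 4 labelled FLASH and 3 labelled CONV, chosen by the title of their GEO records. FLASH libraries came from C57BL/6J wild-type mice whose left hindlimb had received 35 Gy of electrons from an ElectronFlash linear accelerator set to ultra-high dose rate. CONV libraries came from mice of the same strain and genotype given 35 Gy by the same machine at conventional dose rate. Sham libraries (3), from mice of the same strain and genotype that were not irradiated, entered the same fit. All 10 muscle libraries were taken at day 70 after treatment and belonged to 1 batch, and each was total RNA of frozen tissue depleted of ribosomal RNA. The labels number the replicates but do not say that each number was a separate animal, so the p-values reflect variation among these libraries only, some of which may be technical.

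The group of 4 libraries depended on which label was followed. In 5 of the 10 muscle records the deposited file carried the library name of another record. Records FLASH 2 and FLASH 3 held files named as sham libraries, and records sham 2 and sham 3 held files named as FLASH libraries. Record FLASH 1 held a file named for another FLASH library, which leaves its group the same. No CONV library was affected. Groups by record are given first below, with libraries numbered by the replicate of their record. By library name the FLASH group was made of FLASH 1, FLASH 4, sham 2 and sham 3, and the sham group of FLASH 2, FLASH 3 and sham 1. The libraries whose group was the same both ways were 2 FLASH, 3 CONV and 1 sham.

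FLASH radiotherapy gives its whole dose almost at once. The design asks whether late tissue responses differ from those after the same dose given slowly. Skeletal muscle is built of long fibres with many nuclei. Slow fibres carry the myosin Myh7 and depend on oxidative metabolism, and fast fibres carry Myh1, Myh2 or Myh4. Late radiation injury of muscle is known for fibrosis, loss of fibres and loss of satellite cells, the stem cells of the fibres. Muscle is also a main site of glutamine production, through glutamine synthetase, the enzyme encoded by Glul, which joins ammonia to glutamate.

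The stretches of DNA before the start sites of Glul and Mettl11b are shown because these genes led the lower and the higher side of the comparison under library name, and Mettl11b was 1 of the leading higher genes by record. Each is the 250 bases before the start site, on the strand of the gene, from RefSeq on GRCm38.p6. The Glul stretch is chr1:153899679-153899928 on the plus strand, and the Mettl11b stretch is chr1:163725233-163725482 on the minus strand. Capitals mark 2 motifs read on either strand, the hexamer AGGTCA, the half-site of many nuclear receptors, and the pentamer CCAAT, which do not overlap here.
Glul: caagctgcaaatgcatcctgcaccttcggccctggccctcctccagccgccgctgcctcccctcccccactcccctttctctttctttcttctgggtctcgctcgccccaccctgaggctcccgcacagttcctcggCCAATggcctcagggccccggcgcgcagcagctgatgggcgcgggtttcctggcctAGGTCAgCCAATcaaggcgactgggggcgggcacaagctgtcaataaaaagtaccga
Mettl11b: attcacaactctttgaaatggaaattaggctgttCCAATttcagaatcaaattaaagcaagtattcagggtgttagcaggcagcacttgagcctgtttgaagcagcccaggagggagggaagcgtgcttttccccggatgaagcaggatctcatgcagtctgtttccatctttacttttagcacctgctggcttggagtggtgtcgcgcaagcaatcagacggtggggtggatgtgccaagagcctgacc

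The Glul stretch held AGGTCA in 1 place and CCAAT in 2, and the Mettl11b stretch held CCAAT in 1 place. Of 32851 RefSeq promoters of the same length, 14.0% held AGGTCA and 33.8% held CCAAT on either strand. The E-box CACGTG, the site of clock activators and many other factors, was in neither stretch and in 6.02% of the promoters. A match of letters is a description and not a binding site.

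The muscle libraries held 10198699 to 12336479 estimated counts each and 17629 to 18662 genes with at least 1 count. Between 60.0% and 65.1% of the counts fell in the 10 most abundant genes. Lars2, the mitochondrial leucyl-tRNA synthetase gene, took 35.1% to 42.0% by itself, nearly all of it in the transcript ENSMUST00000217116 (3843760 to 4939510 counts), against 215 to 539 counts in ENSMUST00000038863. The annotation classes the first of these as a target of nonsense-mediated decay. Which RNA its counts came from was not tested, so they are not given as a level of the coding Lars2 mRNA. The 13 skeletal muscle identity genes were all measured and summed to 138600 to 166500 CPM (counts scaled to a common library size) in FLASH, 135300 to 163100 CPM in CONV and 134900 to 187200 CPM in sham. Of the 12 skin keratinocyte and hair genes only 2 passed the filter on low counts, and the list summed to at most 45.8 CPM in FLASH, 17.6 CPM in CONV and 10.9 CPM in sham. All CPM values below are scaled by the trimmed mean of M-values (TMM) method.

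One gene of 13080 tested passed the threshold of 0.05 on the adjusted p-value between FLASH and CONV by record, and it was Glul, which fell (0.00765% of the genes tested). By library name the count was again 1 (0.00765%), and the gene was again Glul. An unadjusted p under 0.05 was found for 1086 genes by record and 1114 by library name. Across all genes tested the median log2 fold change was -0.01 by record. In the 6 libraries with an undisputed group, 1 of 13914 genes passed (0.00719%), and it was Myoc, which rose, while 672 had an unadjusted p under 0.05. DESeq2 called 47 genes by record (24 higher, 23 lower), 55 by library name (31 higher, 24 lower) and 14 in the 6 libraries (10 higher, 4 lower). Counts of called list members below are those of edgeR, with the number of members at an unadjusted p under 0.05 by record beside a count of 0. DESeq2 called 12 list genes by record, 11 by library name and 7 in the 6 libraries, and they are named with their lists. The number of calls by edgeR also turned on single libraries. Without CONV 1, 24 genes were called by record and 62 by library name. Without FLASH 1, 5 were called by record and 7 by library name. By record none was called without FLASH 2, FLASH 3, CONV 2, CONV 3 or any 1 of the sham libraries, and by library name 3 were called without the library of record sham 2.

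Glul (ENSMUSG00000026473, chromosome 1, 153899944 to 153909723, plus strand, GRCm38) had 101, 74.6, 72.6 and 120.2 CPM in the FLASH libraries, against 206, 292 and 239 CPM in the CONV libraries and 81.5, 84.5 and 93.7 CPM in the sham libraries. Every CONV library was above every FLASH and every sham library, so the groups did not overlap. The means were 92.0 ± 22.7 CPM in FLASH (SD, n = 4), 246 ± 43.2 CPM in CONV (SD, n = 3) and 86.6 ± 6.38 CPM in sham (SD, n = 3). The log2 fold change of FLASH over CONV was -1.42 (standard error 0.17, edgeR adjusted p = 0.024). By library name Glul averaged 99.8 ± 15.2 CPM in FLASH (SD, n = 4), against the same 246 ± 43.2 CPM in CONV, with a log2 fold change of -1.30 (standard error 0.13, edgeR adjusted p = 0.00087). DESeq2 called Glul by record (adjusted p = 2.4e-10) and by library name (adjusted p = 2.4e-15). The transcript ENSMUST00000086199 carried 91.6% to 99.1% of the gene's counts in every muscle library.

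The call for Glul depended on the libraries in the fit by record and not by library name. With 1 library left out at a time the log2 fold change ran between -1.57 and -1.26 by record, with edgeR adjusted p between 0.0046 and 0.23. It missed the threshold without FLASH 2 (0.096), FLASH 3 (0.061), CONV 2 (0.23), CONV 3 (0.23), sham 1 (0.086), sham 2 (0.079) or sham 3 (0.061). By library name every such fit kept the call, with log2 fold changes between -1.40 and -1.15 and edgeR adjusted p between 0.00023 and 0.011. In the 6 libraries with an undisputed group the log2 fold change was -1.15 (standard error 0.17, edgeR adjusted p = 0.17), and DESeq2 called the gene there (adjusted p = 4.7e-06).

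Myoc, which encodes the secreted protein myocilin, had 44.2, 31.3, 22.7 and 36.1 CPM in FLASH, 15.9, 17.9 and 13.5 CPM in CONV and 18.4, 21.6 and 37.6 CPM in sham. Each FLASH library was above each CONV library, and the sham libraries overlapped the FLASH ones. Its log2 fold change was 1.35 in the 6 undisputed libraries (standard error 0.15, edgeR adjusted p = 0.045). It was 1.09 by record (edgeR adjusted p = 0.39) and 1.15 by library name (edgeR adjusted p = 0.29). DESeq2 called Myoc by record (adjusted p = 0.016), by library name (0.0012) and in the 6 libraries (4.7e-06). Among the 6 libraries the call was lost without FLASH 1, FLASH 4, CONV 2, CONV 3 or sham 1, with edgeR adjusted p between 0.060 and 0.19.

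**Figure D1:**
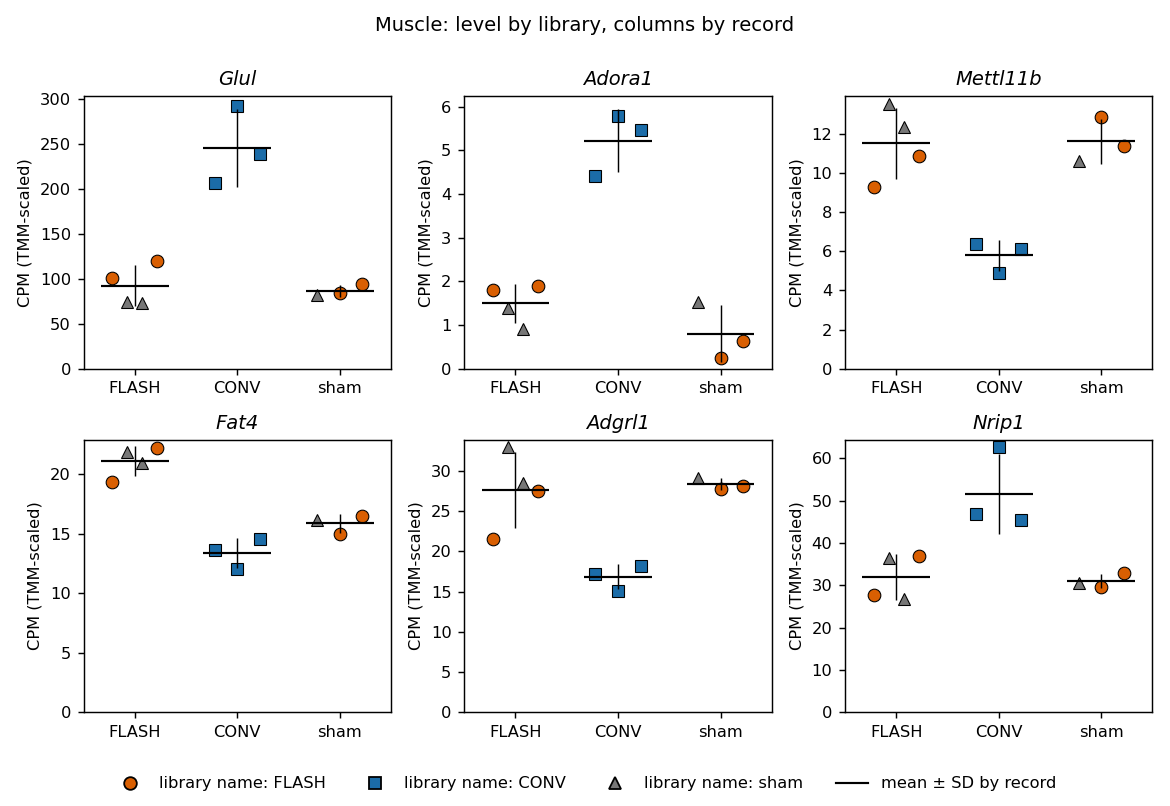
Level of 6 genes in each of the 10 muscle libraries, in TMM-scaled CPM, with FLASH, CONV and sham columns by GEO record, symbols by library name, and lines for mean ± SD by record. For Glul the CONV libraries sit between 206 and 292 CPM, above all other libraries; for Adora1 they are also the highest, and for Mettl11b they are the lowest.

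edgeR called no gene higher by record, against 24 by DESeq2. The 5 with the smallest edgeR p are therefore given by value, among protein-coding genes with a mean of at least 1 CPM. DESeq2 called all 5 by record, with adjusted p of 0.0012 for Mettl11b, 0.0021 for Fat4, 0.0029 for Tnk2, 0.0061 for Adgrl1 and 0.016 for Marcks. By library name DESeq2 called all of these but Fat4 (adjusted p = 0.33). In the 6 undisputed libraries DESeq2 called none of them, with adjusted p between 0.69 and 0.9999. Mettl11b, a member of the methyltransferase family that modifies protein amino ends, had 9.30, 13.5, 12.4 and 10.9 CPM in FLASH, 6.38, 4.91 and 6.13 CPM in CONV and 10.6, 12.9 and 11.4 CPM in sham. The 3 CONV libraries were the lowest of all 10. Its log2 fold change was 0.99 (standard error 0.16, edgeR adjusted p = 0.088) by record and 0.94 (edgeR adjusted p = 0.11) by library name. Fat4, a giant protocadherin of planar cell polarity and Hippo signalling, had 19.4, 21.9, 21.0 and 22.2 CPM in FLASH, 13.7, 12.1 and 14.6 CPM in CONV and 16.2, 15.0 and 16.5 CPM in sham. By record its FLASH libraries lay above both other groups, with a log2 fold change of 0.65 (standard error 0.10, edgeR adjusted p = 0.088). By library name that value was 0.44 (edgeR adjusted p = 0.39).

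The others of this side were Tnk2, Adgrl1 and Marcks. Tnk2, a non-receptor tyrosine kinase, averaged 20.2 ± 3.41 CPM in FLASH (SD, n = 4) and 11.5 ± 0.374 CPM in CONV (SD, n = 3), a log2 fold change of 0.81 (edgeR adjusted p = 0.15). Adgrl1, the adhesion receptor latrophilin, averaged 27.6 ± 4.72 CPM in FLASH (SD, n = 4) and 16.8 ± 1.58 CPM in CONV (SD, n = 3), a log2 fold change of 0.71 (edgeR adjusted p = 0.21). Marcks, a substrate of protein kinase C that binds actin, averaged 20.2 ± 2.69 CPM in FLASH (SD, n = 4) and 12.5 ± 0.756 CPM in CONV (SD, n = 3), a log2 fold change of 0.69 (edgeR adjusted p = 0.21). The values of Tnk2 and Adgrl1 turned on the transcript lengths. With length-scaled counts their log2 fold changes were 0.17 (edgeR adjusted p = 0.89) and 0.26 (edgeR adjusted p = 0.84) by record. In TPM, Tnk2 averaged 15.7 ± 3.86 in FLASH (SD, n = 4) and 15.8 ± 2.96 in CONV (SD, n = 3), and Adgrl1 averaged 6.96 ± 1.02 in FLASH (SD, n = 4) and 6.49 ± 2.47 in CONV (SD, n = 3). In counts, FLASH and CONV libraries did not overlap for any of these genes, under either assignment. The genes were picked by their small p between these groups, so their separation adds no evidence. The 2 assignments share all CONV libraries and 2 FLASH libraries, so they are not independent. Of all genes tested, 4.48% had every FLASH library above every CONV library by record, and 4.4% by library name.

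On the lower side, among protein-coding genes with a mean of at least 1 CPM, the smallest p after Glul were those of Adora1, Cdc14a, Fam126b and Nrip1. Adora1, the adenosine A1 receptor, which lowers cyclic AMP, had 1.80, 1.40, 0.921 and 1.91 CPM in FLASH, 4.40, 5.80 and 5.48 CPM in CONV and 1.53, 0.254 and 0.628 CPM in sham. Its CONV libraries were again above all others, at a low level. The log2 fold change was -1.78 by record (standard error 0.34, edgeR adjusted p = 0.21) and -2.17 by library name (standard error 0.40, edgeR adjusted p = 0.19). Cdc14a, a phosphatase, averaged 9.16 ± 0.533 CPM in FLASH (SD, n = 4) and 15.6 ± 2.96 CPM in CONV (SD, n = 3), and its groups overlapped by library name. Fam126b averaged 8.27 ± 0.80 CPM in FLASH (SD, n = 4) and 14.7 ± 3.75 CPM in CONV (SD, n = 3). Nrip1, a corepressor of nuclear receptors that restrains oxidative genes in muscle, had 27.8, 36.4, 26.7 and 36.8 CPM in FLASH, 46.8, 62.5 and 45.4 CPM in CONV and 30.5, 29.7 and 32.8 CPM in sham. Its log2 fold change was -0.69 by record (edgeR adjusted p = 0.22) and -0.70 by library name (edgeR adjusted p = 0.19). DESeq2 called these 4 genes by record, with adjusted p of 0.0084 for Adora1, 0.023 for Cdc14a, 0.023 for Fam126b and 0.018 for Nrip1. By library name DESeq2 did not call Cdc14a (adjusted p = 0.34) and gave Adora1 no adjusted p. In the 6 undisputed libraries DESeq2 did not call Adora1 (adjusted p = 0.34), Cdc14a or Fam126b (both 0.9999). Every FLASH library was below every CONV library for 4.21% of all genes tested by record and for 4.31% by library name. The genes named here were picked by their small p, so their separation adds no evidence.

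By library name 5 further genes entered the leading 5 of a side by the same choice, and none passed the threshold in edgeR. DESeq2 called all 5 by library name, with adjusted p between 0.00083 and 0.024. Mylk2, the skeletal muscle myosin light chain kinase, had 324, 458, 444 and 436 CPM in the libraries named FLASH, against 274, 248 and 240.3 CPM in CONV, a log2 fold change of 0.71 (edgeR adjusted p = 0.19). By record it was 0.72 (edgeR adjusted p = 0.22). Castor2, a gene of the mTORC1 pathway, averaged 50.2 ± 10.2 CPM in the libraries named FLASH (SD, n = 4) and 31.5 ± 0.994 CPM in CONV (SD, n = 3). Tmem140 averaged 24.8 ± 2.5 CPM in the libraries named FLASH (SD, n = 4) and 14.6 ± 1.5 CPM in CONV (SD, n = 3), and overlapped by record. On the lower side, Mamstr, a coactivator of MEF2 transcription factors, averaged 11.6 ± 0.742 CPM in the libraries named FLASH (SD, n = 4) and 18.4 ± 1.76 CPM in CONV (SD, n = 3). Abca5, a lipid transporter, averaged 11.5 ± 2.01 CPM in the libraries named FLASH (SD, n = 4) and 18.5 ± 2.40 CPM in CONV (SD, n = 3).

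The fibre make-up of the pieces differed among libraries of 1 group. Slow myosin Myh7 made up 1.47%, 0.186%, 0.00507% and 0.433% of the TPM of the 4 adult myosin heavy chains in FLASH, 0.0370%, 7.88% and 2.69% in CONV and 0.0915%, 0.0221% and 0.757% in sham. CONV 2 and CONV 3 had the most Myh7 of the 10 libraries, and CONV 1 had less than most. Myh4, the fastest of these myosins, made up 85.4%, 96.2%, 89.9% and 94.0% in FLASH, 97.6%, 76.8% and 83.9% in CONV and 98.1%, 84.7% and 90.8% in sham. All 12 slow fibre genes were lower in FLASH than in CONV by record, with a median log2 fold change of -2.67. edgeR called 0 of the 12 (1 with an unadjusted p under 0.05), and DESeq2 called Sln by record. By library name 11 of 12 were lower, with a median of -2.25. Without CONV 2 the median by record was -1.37.

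Named slow fibre genes carried that spread. Atp2a2, the slow calcium pump of the sarcoplasmic reticulum, had 196, 31.3, 15.1 and 68.2 CPM in FLASH, 35.7, 983 and 466 CPM in CONV and 32.4, 18.1 and 115 CPM in sham. Its CONV 1 value lay within the FLASH range, and the log2 fold change was -2.67 with a standard error of 1.27 (edgeR adjusted p = 0.61). Sln, sarcolipin, which binds calcium pumps, had 0.859, 0.0872, 0 and 0.0907 CPM in FLASH, 1.17, 31.2 and 3.19 CPM in CONV and 0.669, 0.170 and 0.448 CPM in sham. The log2 fold change of Sln, -5.33 (standard error 1.44), rests on few counts in FLASH, with an edgeR adjusted p of 0.43 and a DESeq2 adjusted p of 0.031 by record. Of 16 fast fibre genes 15 were higher in FLASH, with a median log2 fold change of 0.22 and 0 called by edgeR or DESeq2 (0 with an unadjusted p under 0.05). That median was 0.36 without CONV 1, 0.11 by library name and 0.08 in the 6 undisputed libraries. Casq1, the fast calsequestrin that stores calcium, averaged 901 ± 203 CPM in FLASH (SD, n = 4) and 692 ± 129 CPM in CONV (SD, n = 3). In bulk tissue, fewer cells of a type and less RNA per cell cannot be told apart.

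Glul was also compared with the slow fibre score as a covariate, an alternative chosen after seeing the data. The score is the mean log2(CPM + 0.5) of the 12 genes, and was 4.99, 2.71, 1.10 and 3.58 in FLASH, 2.16, 7.14 and 5.83 in CONV and 2.66, 2.13 and 4.18 in sham. With it the log2 fold change of Glul was -1.20 by record (standard error 0.14, edgeR adjusted p = 0.016) and -1.18 by library name (standard error 0.12, edgeR adjusted p = 0.0012). CONV 2 and CONV 3 had the highest scores of all muscle libraries, while CONV 1 was below FLASH 1, FLASH 2 and FLASH 4. Score and group cannot be fully told apart in these libraries, and the part of fibre make-up in the Glul values was not tested.

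**Figure D2:**
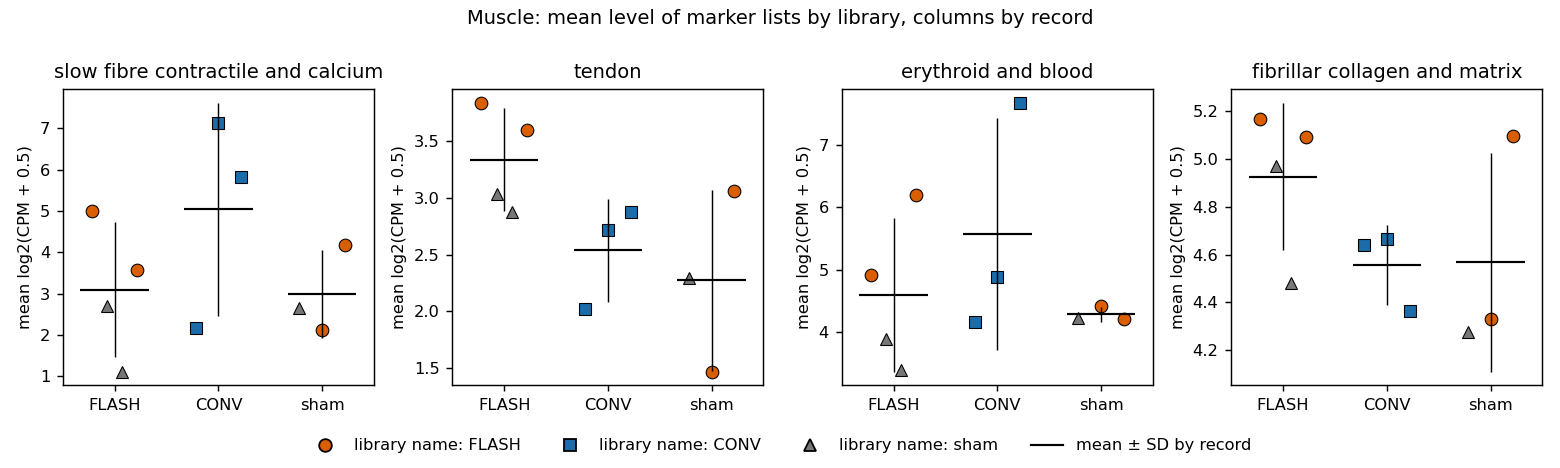
Mean log2(CPM + 0.5) of 4 gene lists in each muscle library, with columns by GEO record, symbols by library name, and lines for mean ± SD by record; the vertical axes do not start at 0. The slow fibre score ran from 1.10 to 4.99 in FLASH and from 2.16 to 7.14 in CONV, the blood score was highest in CONV 3 (7.67), and the tendon score was highest in FLASH 1.

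The list of glutamine, glutamate and other amino acid genes holds Glul. Of its 22 tested genes, 8 were higher and 14 lower in FLASH by record, with a median log2 fold change of -0.16, and Glul alone was called, by edgeR and by DESeq2. Psat1, which makes the serine precursor phosphoserine from glutamate, had 0.625, 0.436, 0.205 and 0.363 CPM in FLASH, 1.35, 1.37 and 1.06 CPM in CONV and 0.573, 0.424 and 0.359 CPM in sham. Slc38a1, a glutamine importer, had 3.20, 2.96, 2.56 and 4.26 CPM in FLASH, 4.67, 5.72 and 5.07 CPM in CONV and 2.87, 3.56 and 3.50 CPM in sham. For both genes the CONV libraries were the 3 highest of the 10, with log2 fold changes of -1.57 (edgeR adjusted p = 0.29) and -0.66 (edgeR adjusted p = 0.39) by record.

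Purine genes, listed for Adora1, had 6 higher and 9 lower of 15, with a median of -0.27 by record and -0.06 by library name. edgeR called 0 of them (2 with an unadjusted p under 0.05), and DESeq2 called Adora1 by record. Ampd1, the muscle AMP deaminase, averaged 438 ± 113 CPM in FLASH (SD, n = 4) and 293 ± 87.9 CPM in CONV (SD, n = 3), and its groups overlapped.

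Glul is also a known target of glucocorticoids and of the FoxO factors of muscle atrophy. Of 26 genes of that list, which holds Glul, 6 were higher and 20 lower, with a median of -0.20 by record and -0.15 by library name, and Glul alone was called by edgeR. DESeq2 called Glul by record, and Glul and Mt1 by library name (Mt1 adjusted p = 0.045). Mt1, a metallothionein induced by metals and glucocorticoids, had 3.36, 2.62, 1.43 and 3.63 CPM in FLASH, 5.66, 17.5 and 4.17 CPM in CONV and 2.01, 2.12 and 3.14 CPM in sham. Bnip3, a mitophagy receptor, averaged 54.9 ± 6.84 CPM in FLASH (SD, n = 4) and 73.6 ± 12.6 CPM in CONV (SD, n = 3). For both genes every CONV library was above every FLASH library, with edgeR adjusted p of 0.44 and 0.40.

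The next list held genes of the neuromuscular junction, where the motor nerve meets the fibre, and genes of denervation. Of these, 16 of 16 were lower in FLASH than in CONV by record and 15 of 16 by library name. Neither edgeR nor DESeq2 called any of the 16 (4 with an unadjusted p under 0.05). The median log2 fold change was -0.50 by record, -0.34 by library name and -0.47 in the 6 undisputed libraries. The summed level was 160.1, 158, 157 and 143 CPM in FLASH, 205, 204 and 181 CPM in CONV and 165, 151 and 132 CPM in sham. The 3 CONV libraries had the highest sums of the 10. Chrna1, the alpha subunit of the acetylcholine receptor, whose level is known to climb after denervation, had 4.61, 3.05, 3.89 and 2.99 CPM in FLASH, 7.10, 9.26 and 6.46 CPM in CONV and 4.87, 6.10 and 2.51 CPM in sham. Its log2 fold change was -1.06 by record (standard error 0.26, edgeR adjusted p = 0.29) and -0.90 by library name (standard error 0.26, edgeR adjusted p = 0.35). Dok7, an activator of the receptor kinase MuSK, averaged 5.50 ± 0.822 CPM in FLASH (SD, n = 4) and 8.09 ± 3.00 CPM in CONV (SD, n = 3). Lrp4, the agrin receptor, averaged 13.6 ± 1.65 CPM in FLASH (SD, n = 4) and 18.4 ± 2.53 CPM in CONV (SD, n = 3). All FLASH libraries were below all CONV libraries for 4 of the 16 genes by record and 5 by library name, against 4.21% and 4.31% of all genes tested. Whether fibre make-up has a part in the values of this list was not tested. Without CONV 2 the list median was -0.32.

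Myogenic regulators and satellite cell genes were split, with 6 higher and 7 lower of 13, a median of -0.01 and 0 called by edgeR or DESeq2 (2 with an unadjusted p under 0.05). Myod1, the master regulator of muscle determination, had 6.80, 7.41, 10.0 and 8.53 CPM in FLASH, 11.6, 17.8 and 11.8 CPM in CONV and 6.31, 7.38 and 10.2 CPM in sham. Every CONV library was above the other 7, with a log2 fold change of -0.75 (edgeR adjusted p = 0.35). Of 6 tested genes of embryonic and regenerating fibres 5 were lower, with a median of -0.32 and 0 called by edgeR or DESeq2 (2 with an unadjusted p under 0.05). Myh8, the perinatal myosin, had 2.19, 1.74, 1.84 and 2.00 CPM in FLASH, 5.12, 3.94 and 2.54 CPM in CONV and 2.10, 2.97 and 2.42 CPM in sham.

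Heat shock chaperones, which refold damaged proteins, were lower in FLASH in 17 of 17 genes by record and 16 of 17 by library name, with medians of -0.41 and -0.32. edgeR called 0 of them (6 with an unadjusted p under 0.05), and DESeq2 called Hspa1b and Cryab by record and Hspa1b by library name. Hspa1b, an inducible member of the Hsp70 family, had 3.12, 2.62, 1.13 and 1.36 CPM in FLASH, 6.29, 24.3 and 6.54 CPM in CONV and 1.72, 1.70 and 1.79 CPM in sham. CONV 2 stood far above the others, and the 2 remaining CONV libraries were still above all FLASH and sham libraries. The log2 fold change was -2.56 by record (standard error 0.56, edgeR adjusted p = 0.29), and DESeq2 called it (adjusted p = 0.00028). Reads of Hspa1b and its near-identical neighbour Hspa1a can be divided between them by the quantification, so its level is uncertain. Hsp90aa1, the inducible Hsp90, averaged 17.9 ± 3.78 CPM in FLASH (SD, n = 4) and 25.3 ± 3.62 CPM in CONV (SD, n = 3). Cryab, a small chaperone abundant in slow fibres, had 183, 81.4, 107 and 135 CPM in FLASH, 157, 386 and 308 CPM in CONV and 90.7, 110.2 and 112 CPM in sham. Cryab was high in CONV 2 and CONV 3, the libraries with the most Myh7, and with the slow fibre covariate its log2 fold change was -0.66, against -1.16 without it. Its DESeq2 adjusted p without the covariate was 0.023. The part of fibre make-up in the Cryab values was not tested.

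The list of muscle stretch and stress genes had 14 of 17 lower and a median of -1.16 by record and -0.92 by library name. edgeR called 0 of them (5 with an unadjusted p under 0.05), and DESeq2 called Sln and Cryab by record. Hspb1, a small chaperone of this list, averaged 28.2 ± 6.60 CPM in FLASH (SD, n = 4) and 52.0 ± 23.7 CPM in CONV (SD, n = 3). The list sum was 8234 CPM in CONV 2 and 4703 to 5402 CPM in the other 9 libraries. Its median was -0.43 without CONV 2 and -0.17 with the slow fibre covariate. Sln belongs both to this list and to the slow fibre score, so the covariate is not independent of the list.

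Immediate early genes, which cells switch on within minutes of a stimulus and which also move with handling of the tissue, were lower in 20 of 22 by record and 15 of 22 by library name, with medians of -0.48 and -0.23 and 0 called by edgeR or DESeq2 (5 with an unadjusted p under 0.05). Fosb had 0.625, 0.523, 0.409 and 0 CPM in FLASH, 5.93, 1.61 and 0.572 CPM in CONV and 0.478, 1.44 and 0.359 CPM in sham. Atf3, a stress-induced transcription factor, had 1.56, 0.872, 0.307 and 0.454 CPM in FLASH, 1.35, 18.3 and 1.39 CPM in CONV and 1.05, 0.933 and 0.987 CPM in sham. Each was high in 1 CONV library, CONV 1 for Fosb and CONV 2 for Atf3, and the groups overlapped. The integrated stress response list, which also holds Atf3, had 9 of 15 higher and a median of 0.09.

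**Figure D3:**
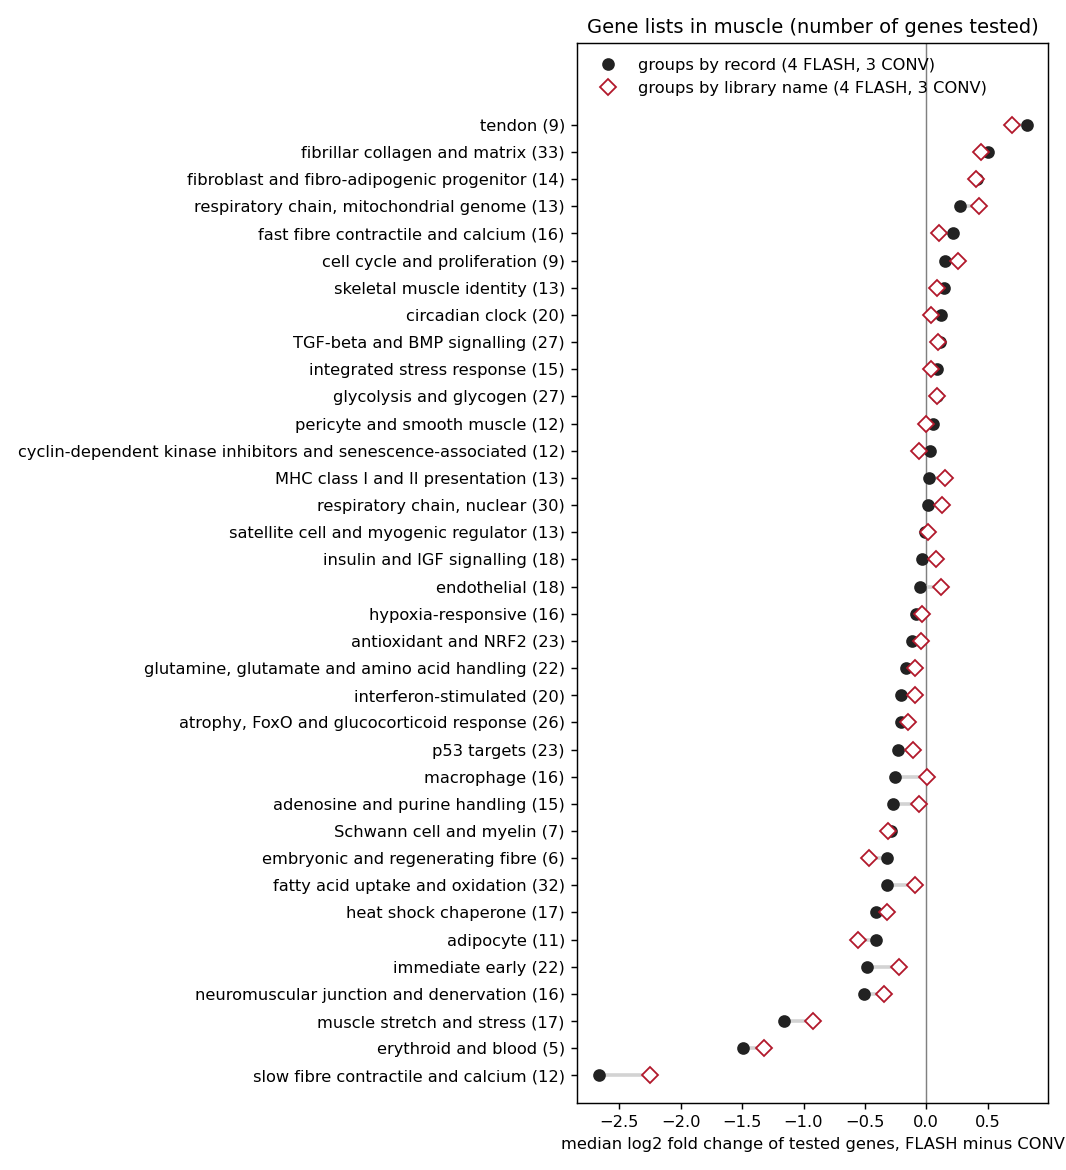
Median log2 fold change of FLASH over CONV for the 36 gene lists with at least 3 tested genes, by GEO record (filled circles) and by library name (open diamonds); the number of genes tested is in brackets. Slow fibre genes are at the bottom with -2.67 by record, and tendon genes at the top with 0.82.

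The circadian clock list had 13 of 20 genes higher and a median of 0.12. edgeR called 0 of them (5 with an unadjusted p under 0.05), and DESeq2 called Nr1d1, Per2 and Usp2 under both assignments. Nr1d1, the repressor REV-ERB alpha, had 95.7, 112, 131 and 111 CPM in FLASH, 70.3, 29.1 and 41.2 CPM in CONV and 143, 108 and 122 CPM in sham. The CONV libraries were the 3 lowest, and the log2 fold change was 1.26 by record (standard error 0.26, edgeR adjusted p = 0.24) and 1.22 by library name (standard error 0.26, edgeR adjusted p = 0.24). Its DESeq2 adjusted p was 0.00028 by record, and edgeR called it without CONV 1 (adjusted p = 0.0037). Its paralog Nr1d2, chosen after its values were seen, averaged 64.2 ± 5.35 CPM in FLASH (SD, n = 4) and 63.4 ± 6.09 CPM in CONV (SD, n = 3), a log2 fold change of 0.02 (standard error 0.10). Per2, a core repressor that glucocorticoids also induce, had 8.36, 9.15, 4.30 and 10.2 CPM in FLASH, 16.7, 13.3 and 20.9 CPM in CONV and 9.94, 7.04 and 8.43 CPM in sham. Usp2, a deubiquitinase under clock control, had 81.1, 83.8, 63.7 and 83.1 CPM in FLASH, 105, 117 and 118 CPM in CONV and 82.5, 80.1 and 67.0 CPM in sham. For Per2 and Usp2 the CONV libraries were the 3 highest, with log2 fold changes of -1.07 (edgeR adjusted p = 0.29) and -0.54 (edgeR adjusted p = 0.22) by record. Their DESeq2 adjusted p-values were 0.023 and 0.016. The hour at which each tissue was taken is not given in the labels, and its part in these values was not tested.

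**Figure D4:**
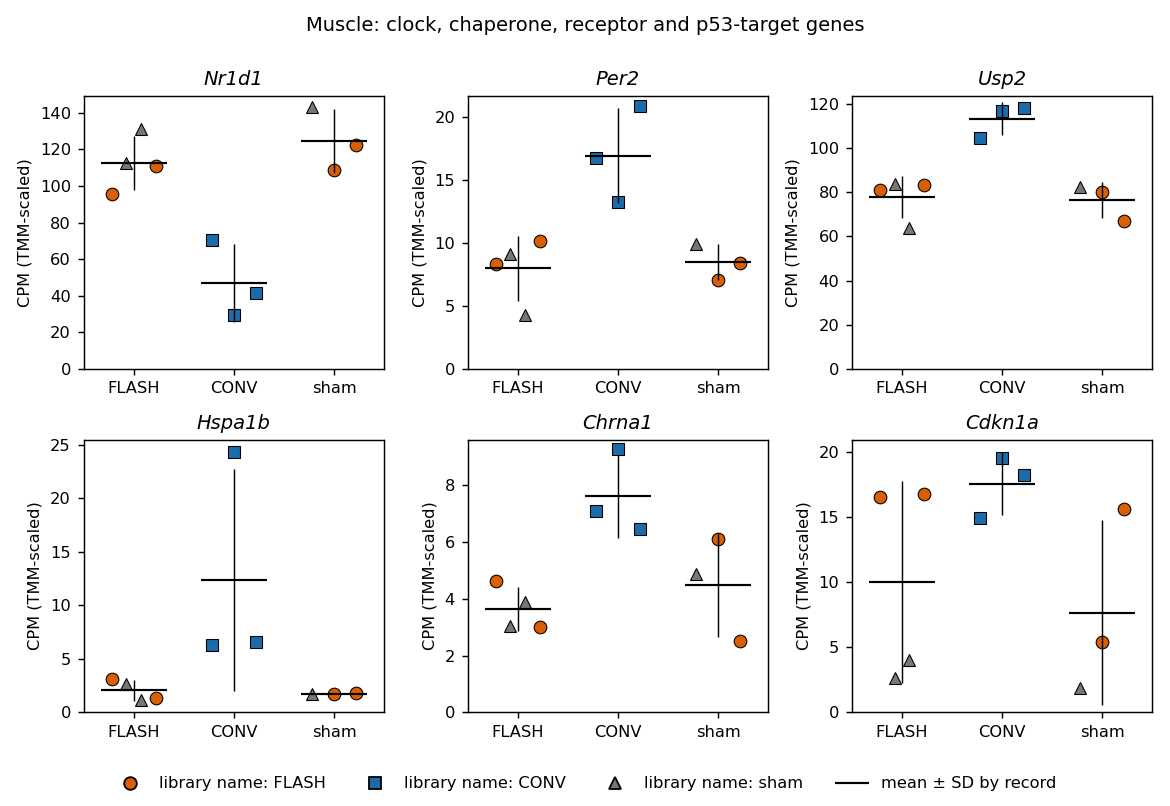
Level of 6 genes in each muscle library, in TMM-scaled CPM, with columns by GEO record, symbols by library name, and lines for mean ± SD by record. The CONV libraries are the lowest for Nr1d1 (29.1 to 70.3 CPM) and the highest for Per2, Usp2, Hspa1b and Chrna1, while for Cdkn1a they overlap the FLASH libraries.

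Matrix genes, the products of which accumulate in fibrosis, were higher in FLASH than in CONV in 29 of 33 by record and in 29 of 33 by library name. edgeR called 0 of them (9 with an unadjusted p under 0.05 by record, 12 by library name and 18 in the 6 undisputed libraries). Over all genes tested these counts were 1086 of 13080, 1114 of 13080 and 672 of 13914. DESeq2 called Col6a1 (adjusted p = 0.016) and Loxl2 (adjusted p = 0.024) by record and Dcn by library name. In the 6 undisputed libraries DESeq2 called Col12a1, Col1a2 and Dcn. The median log2 fold change was 0.50 by record, 0.45 by library name and 0.56 in the 6 undisputed libraries. Col6a1, a chain of the collagen around each fibre, had 48.3, 54.6, 38.8 and 39.6 CPM in FLASH, 31.6, 24.3 and 27.2 CPM in CONV and 31.3, 34.6 and 44.3 CPM in sham. It did not overlap between FLASH and CONV, with a log2 fold change of 0.71 by record (standard error 0.15, edgeR adjusted p = 0.22) and 0.59 by library name (edgeR adjusted p = 0.37). Loxl2, an enzyme that cross-links collagen, had 11.8, 14.8, 9.11 and 12.1 CPM in FLASH, 5.66, 7.97 and 3.76 CPM in CONV and 8.98, 8.31 and 12.2 CPM in sham. Col5a1, which nucleates collagen fibrils, averaged 33.8 ± 6.63 CPM in FLASH (SD, n = 4) and 21.7 ± 3.08 CPM in CONV (SD, n = 3). The main fibrillar collagens, chosen after their values were seen, were more variable. Col1a1 had 300, 261, 81.9 and 143 CPM in FLASH, 88.4, 92.3 and 121 CPM in CONV and 75.1, 64.8 and 168 CPM in sham, and its groups overlapped. Col3a1 had 141, 193, 99.1 and 174 CPM in FLASH, 113, 95.9 and 54.2 CPM in CONV and 97.9, 123 and 213 CPM in sham. FLASH libraries were all above CONV libraries for 7 of the 33 genes by record and 8 by library name, against 4.48% and 4.4% of all genes tested. Without CONV 3 the list median was 0.33 by record.

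Markers of tendon and of fibroblasts were also higher in FLASH by value. All 9 tendon genes were higher in FLASH by record and 8 of 9 by library name, with medians of 0.82 and 0.70 and 0 called by edgeR or DESeq2 (2 with an unadjusted p under 0.05). In the 6 undisputed libraries the median was 1.32, and DESeq2 called Comp and Thbs4. The list summed to 389.8, 204, 200 and 297 CPM in FLASH, 102, 167 and 169 CPM in CONV and 100, 50.3 and 190 CPM in sham. Tnmd, tenomodulin, a defining tendon gene, had 4.53, 3.05, 2.97 and 5.26 CPM in FLASH, 0.629, 1.93 and 1.64 CPM in CONV and 1.72, 0.933 and 4.57 CPM in sham. Chad, chondroadherin, had 36.3, 12.6, 13.2 and 15.0 CPM in FLASH, 1.44, 4.91 and 9.32 CPM in CONV and 3.34, 1.19 and 5.02 CPM in sham. Thbs4, a thrombospondin of tendon and muscle, averaged 97.1 ± 23.8 CPM in FLASH (SD, n = 4) and 59.6 ± 12.5 CPM in CONV (SD, n = 3). Of 14 fibroblast and fibro-adipogenic progenitor genes 11 were higher, with a median of 0.41 under both assignments. Gsn, gelsolin, averaged 278 ± 64.8 CPM in FLASH (SD, n = 4) and 192 ± 30.7 CPM in CONV (SD, n = 3). How much tendon each piece held, and its part in the matrix values, was not tested. Of 27 genes of TGF-beta and BMP signalling, the main fibrotic pathway, 19 were higher, with a median of 0.11. Smad3, which carries the TGF-beta signal to the nucleus, had 44.1, 48.7, 54.2 and 37.7 CPM in FLASH, 35.3, 29.1 and 35.1 CPM in CONV and 46.6, 51.1 and 45.7 CPM in sham. Smad6, an inhibitor of BMP signals, averaged 3.92 ± 1.33 CPM in FLASH (SD, n = 4) and 2.34 ± 0.275 CPM in CONV (SD, n = 3).

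The p53 pathway, which answers DNA damage, had 5 of 23 targets higher and 18 lower in FLASH, with a median of -0.23 by record and -0.11 by library name and 0 called by edgeR or DESeq2 (2 with an unadjusted p under 0.05). Btg2, an antiproliferative target, had 9.69, 7.06, 4.91 and 7.17 CPM in FLASH, 15.0, 16.8 and 9.65 CPM in CONV and 5.26, 16.5 and 12.2 CPM in sham. Gadd45a, a growth arrest gene, had 5.23, 2.7, 4.30 and 7.17 CPM in FLASH, 7.37, 7.24 and 7.28 CPM in CONV and 3.63, 6.70 and 3.86 CPM in sham. Cdkn1a, the cell cycle inhibitor p21 and chosen after its values were seen, had 16.6, 2.62, 3.99 and 16.8 CPM in the FLASH records, 14.9, 19.6 and 18.2 CPM in CONV and 1.91, 5.43 and 15.6 CPM in the sham records. By library name it had 16.6, 5.43, 15.6 and 16.8 CPM in FLASH, the same values in CONV and 1.91, 2.62 and 3.99 CPM in sham. Its log2 fold change of FLASH over CONV was -0.80 by record (standard error 0.77, edgeR adjusted p = 0.81) and -0.37 by library name (standard error 0.35, edgeR adjusted p = 0.82). Genes of cyclin-dependent kinase inhibitors and senescence were 6 higher and 6 lower of 12. Of the 9 tested cell cycle genes 6 were higher, among them Aurka, a mitotic kinase, with 2.92 ± 1.31 CPM in FLASH (SD, n = 4) and 1.43 ± 0.505 CPM in CONV (SD, n = 3).

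The balance of the immune lists depended on the assignment, and neither edgeR nor DESeq2 called any of their genes (1, an interferon-stimulated gene, with an unadjusted p under 0.05). Macrophage genes were 3 higher and 13 lower of 16 by record, and 8 higher and 8 lower by library name, with medians of -0.25 and 0.00. Cd68, a macrophage lysosomal protein, had 2.03, 0.872, 0.307 and 2.36 CPM in FLASH, 2.34, 2.01 and 2.37 CPM in CONV and 0.669, 1.87 and 1.61 CPM in sham. Interferon-stimulated genes were 3 higher and 17 lower of 20 by record, with a median of -0.20. They were 7 higher and 13 lower by library name, with a median of -0.09, and the median was 0.06 in the 6 undisputed libraries. Ifitm3, which blocks viral entry, averaged 8.88 ± 1.33 CPM in FLASH (SD, n = 4) and 11.2 ± 1.35 CPM in CONV (SD, n = 3). Only 2 of 20 neutrophil and acute inflammation genes, and 2 of 16 genes of T, B and NK cells, were abundant enough to be tested. Genes of antigen presentation (7 of 13 higher), endothelium (8 of 18) and pericytes and smooth muscle (7 of 12) had medians between -0.05 and 0.05 by record, and neither edgeR nor DESeq2 called any of them (2, both endothelial, with an unadjusted p under 0.05). For antigen presentation 9 of 13 were higher by library name (median 0.15) and 11 of 13 in the 6 undisputed libraries (median 0.34). In the latter, 6 of the 13 had an unadjusted edgeR p under 0.05, against 672 of all 13914 genes tested.

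Of the 13 protein-coding genes of the mitochondrial genome, which encode subunits of the respiratory chain, 12 were higher in FLASH under both assignments, with a median log2 fold change of 0.28 by record and 0.43 by library name and 0 called by edgeR or DESeq2 (0 with an unadjusted p under 0.05 by record, 9 by library name). FLASH libraries were all above CONV libraries for 1 of 13 by record and for 11 of 13 by library name, against 4.48% and 4.4% of all genes tested. These genes are cut from shared transcripts, so they are not independent. mt-Nd1, a core subunit of complex I, had 7706, 5797, 8863 and 6206 CPM in FLASH, 5759, 5292 and 5698 CPM in CONV and 5869, 10300 and 6965 CPM in sham. The sum was highest in sham 2, a library named FLASH. Nuclear genes of the respiratory chain had medians of 0.01 by record (17 of 30 higher) and 0.13 by library name (29 of 30 higher).

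Glycolysis and glycogen genes were higher in 17 of 27, with a median of 0.09, which was 0.26 without CONV 1. Pfkm, the muscle phosphofructokinase that sets the pace of glycolysis, had 1323, 1377, 1577 and 1246 CPM in FLASH, 1150, 1018 and 930 CPM in CONV and 1481, 1496 and 1483 CPM in sham. It did not overlap between FLASH and CONV, with a log2 fold change of 0.42 (standard error 0.12, edgeR adjusted p = 0.40), and DESeq2 called it (adjusted p = 0.023). Eno3, the muscle enolase, averaged 1322 ± 150 CPM in FLASH (SD, n = 4) and 1054 ± 103 CPM in CONV (SD, n = 3). Genes of fatty acid uptake and oxidation were lower in 28 of 32, with a median of -0.32 by record and -0.09 by library name. Plin5, a lipid droplet protein that docks at mitochondria, had 4.84, 2.27, 1.84 and 3.90 CPM in FLASH, 4.14, 8.05 and 8.75 CPM in CONV and 1.82, 6.95 and 3.77 CPM in sham. It was highest in CONV 3 and CONV 2, the libraries with the most Myh7. With the slow fibre covariate the median of the fatty acid list was -0.16, and the part of fibre make-up in these values was not tested. Antioxidant and NRF2 genes were 8 higher and 15 lower of 23. Hmox1, heme oxygenase, had 2.11, 2.35, 1.43 and 2.36 CPM in FLASH, 3.15, 5.39 and 3.84 CPM in CONV and 1.53, 1.87 and 2.78 CPM in sham, with every CONV library above the rest. Mt2, the second metallothionein, was high in CONV 2 (8.13 CPM) and CONV 1 (3.78 CPM).

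Lists of blood, fat and nerve were lower in FLASH. edgeR called 0 of their genes (1, Plin4, with an unadjusted p under 0.05). All 5 blood genes were lower, with a median of -1.49, which rested on 1 library. Hbb-bs, adult beta globin, had 68.3, 31.8, 21.3 and 186 CPM in FLASH, 39.2, 75.1 and 561 CPM in CONV and 39.0, 45.7 and 37.6 CPM in sham. Without CONV 3 the median of the blood list was 0.43. Of 11 adipocyte genes 9 were lower by record and 11 by library name, with medians of -0.41 and -0.55, and the first was -0.15 without CONV 1. Plin4, a lipid droplet protein of fat and muscle, had 77.9, 39.3, 52.2 and 70.3 CPM in FLASH, 101, 159 and 110 CPM in CONV and 65.0, 50.9 and 52.9 CPM in sham. Every CONV library was above the other 7, with a log2 fold change of -1.04 (standard error 0.23, edgeR adjusted p = 0.29). DESeq2 called Plin4 (adjusted p = 0.0066). Schwann cell and myelin genes were lower in 5 of 7 by record and 7 of 7 by library name, with a median of -0.29 by record that was 0.03 without CONV 1.

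Growth factor and hypoxia lists had medians near that of all genes. edgeR called 0 of their genes. An unadjusted p under 0.05 by record was found for 5 of 18 insulin and IGF genes and 3 of 16 hypoxia genes, against 1086 of 13080 tested. Insulin and IGF signalling genes were 8 higher and 10 lower of 18, with a median of -0.03. Igf2, a growth factor of muscle development, had 11.9, 8.63, 7.16 and 7.89 CPM in FLASH, 12.3, 12.2 and 12.9 CPM in CONV and 10.0, 8.90 and 8.61 CPM in sham. Igfbp6, a binding protein that prefers IGF2, ran the other way, with 12.2, 11.3, 6.75 and 15.9 CPM in FLASH, 7.73, 6.52 and 4.50 CPM in CONV and 6.88, 10.6 and 13.5 CPM in sham. Its log2 fold change was 0.89 by record (edgeR adjusted p = 0.50) and 1.06 by library name (edgeR adjusted p = 0.21), where DESeq2 called it (adjusted p = 0.0089). Hypoxia-responsive genes were 6 higher and 10 lower of 16, with a median of -0.08. Vldlr, a lipoprotein receptor listed with the integrated stress response, had 215, 325, 362 and 236 CPM in FLASH, 205, 170.0 and 160 CPM in CONV and 298, 381 and 276 CPM in sham, with the 3 CONV libraries lowest. DESeq2 called Vldlr by library name (adjusted p = 0.040).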

How the data were processed

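Per the labels, RNA came from 10 muscle libraries prepared with a stranded total RNA kit with removal of ribosomal RNA. The deposited files held an estimated count, a TPM value and an effective length for each of 116116 transcripts, made by the authors with kallisto on mm10, per the submitters' processing notes. The annotation release is not given in the sources used here. Transcripts were matched by identifier without version to GENCODE M21 (GRCm38). This matched 98.5% of them, and unmatched ones (1.58% to 1.78% of counts) were left out. The deposited estimated counts were summed over 35579 genes and rounded. kallisto divides reads among similar sequences, so near-identical copies are uncertain. Deposited TPM values were used for myosin shares.

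edgeR 4.0.16 (R 4.3.3) gave the main test: quasi-likelihood with robust dispersion, TMM, the filterByExpr filter by group and Benjamini-Hochberg adjustment over all genes tested, with FLASH, CONV and sham libraries in 1 fit. It was repeated with groups by library name and with the 6 undisputed libraries. DESeq2 1.42.0 was an alternative. The fit was checked on simulated counts. Standard errors were obtained by dividing a log2 fold change by the root of its F statistic. Within groups, chi-square per degree of freedom between libraries was 7.78 to 42.5, so none agreed within sampling noise.

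Genes named were all genes called and up to 3 members of each of 39 gene lists by smallest p by record. The 5 of smallest p in each direction per assignment were also named, among protein-coding genes with a mean of at least 1 CPM. The members and lists were chosen with earlier results of these data known. Nr1d2, Col1a1, Col3a1, Cdkn1a and Lars2 were added after their values were seen. Skin libraries were not used here.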

Additional observations from a re-analysis of the deposited data

Results flagged for a closer look

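Of 142 groups of 4 FLASH libraries screened, made of the values of 68 genes and 3 library measures under both assignments, 8 held a value far from the other 3 by Dixon's criterion, which chance meets in about 1 of 20 groups. By record, Sln had 0.859 CPM in FLASH 1, against 0 to 0.0907 CPM in the other FLASH records, and Chad had 36.3 CPM in FLASH 1, against 12.6 to 15.0 CPM. Usp2 had 63.7 CPM in FLASH 3, against 81.1 to 83.8 CPM in the other FLASH records. By library name, Adgrl1 had 21.5 CPM in FLASH 1, against 27.5 to 28.2 CPM in the other libraries named FLASH, and Mylk2 had 324 CPM in FLASH 1, against 436 to 458 CPM. The library of record sham 2, named FLASH, was low for 3 genes. It had 8.31 CPM of Loxl2, against 11.8 to 12.2 CPM in the other libraries named FLASH, 0.933 CPM of Tnmd, against 4.53 to 5.26 CPM, and 5.43 CPM of Cdkn1a, against 15.6 to 16.8 CPM.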

How the results depend on the processing

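The count of genes called between FLASH and CONV was 1 by record, 1 by library name and 1 in the 6 undisputed libraries. It stayed at 1 by record and by library name with RLE size factors, length-scaled counts, Lars2 left out or the slow fibre score as a covariate, the last 2 chosen after seeing the data. DESeq2 gave 47 by record, 55 by library name and 14 in the 6 libraries. Without a filter on low counts the count was 21 by record and 32 by library name. With only FLASH and CONV libraries in the fit it was 0 by record, 1 by library name and 0 in the 6 libraries, and without robust estimation 0 by record. Leaving out 1 library at a time gave 0 to 24 by record, 1 to 62 by library name and 0 to 24 in the 6 libraries; a lone library left in a group is assumed to vary like the others. With a replicate block the count was 0 by record and 2 by library name (Glul and Hspa1b). The replicate numbers gave no clear sign of pairing. Deviations of same-numbered libraries correlated at -0.358 to 0.296 by record and -0.153 to 0.172 by library name. With so few libraries in a group this cannot exclude a pairing. The log2 fold change of Nr1d2 was -0.0072 with the block and ran from -0.030 to 0.10 with 1 library left out, and that of Hbb-bs ran from -2.47 to 0.43, the highest without CONV 3. Genes such as Psat1 and Sln rest on few counts, and the cause of these changes was not tested.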
